A study of Oryctolagus cuniculus with 20 samples.

Results

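The genes described here are 4 matrix metalloproteinases (MMP1, MMP3, MMP12 and MMP13), the aggrecanase ADAMTS5 and the inhibitor TIMP1. They were read on one-colour Agilent arrays in the condylar cartilage of the rabbit temporomandibular joint, the cartilage that covers the articular head of the jaw. A probe was taken as a member if the gene given by its name, description or transcript was one of the 6. This held for 23 of the 43603 distinct probes on the array, for 7 of the 878 genes that could be named. Of the 23 probes, 12 carry one of these symbols in the files and 11 do not, among them every probe of ADAMTS5 and TIMP1. The TIMP1 probe and the 4 probes given below as MMP1 were matched through RefSeq records of the mOryCun1.1 assembly. The ADAMTS5 probes were matched by the gene's full name in their description, except the probe of highest mean level. That probe was matched only by an Ensembl transcript that it shares with the others. The 5 probes that the files call MMP1 carry an accession that RefSeq assigns to MMP14, whose listed synonyms include MMP1. They are given below as MMP14 (named MMP1 in the files). The 4 probes of the gene that RefSeq now calls MMP1 are described in the files only as collagenase, and are given as MMP1.

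The deranged groups were the left joints of male rabbits, 6 months old, sampled 1, 2, 4 or 8 weeks after the joint was subjected to internal derangement, with 4 arrays per time. The control group was 4 arrays from male rabbits of the same age without any treatment. The labels name no side for the control joints, describe no sham procedure and give the control no time, so derangement, its procedure and the passing of time cannot be told apart in a comparison with control. The 4 control arrays serve in each comparison with control, and those comparisons therefore share their control samples.

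Matrix metalloproteinases are zinc endopeptidases that are made as inactive proenzymes and cut the proteins of the extracellular matrix. MMP1 and MMP13 are collagenases, which open the triple helix of fibrillar collagen, and MMP13 is known in cartilage for its preference for collagen II and its expression by hypertrophic chondrocytes. MMP3, a stromelysin, cuts proteoglycans and activates other proenzymes, MMP12 is known as the macrophage elastase, and ADAMTS5 cleaves the core protein of aggrecan. TIMP1 binds the active site of many of these enzymes and inhibits them. In the RefSeq annotation MMP1, MMP3 and MMP12 are consecutive genes and MMP13 follows them after 2 pseudogenes, so 4 of the 6 genes lie side by side in one gene cluster.

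The probe sequences are shown because 2 features of them bear on the values below, the tiling of some sets and the likeness of family members to each other. The MMP14 (named MMP1 in the files) set is 5 probes of 60 bases that step along the transcript by 1 base, so that 56 bases, in capitals, are common to the set. The first and last of them start at base 1426 and 1430 of the target.
MMP14 (named MMP1), first: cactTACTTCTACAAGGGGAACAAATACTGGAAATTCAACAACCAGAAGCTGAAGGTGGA
MMP14 (named MMP1), last: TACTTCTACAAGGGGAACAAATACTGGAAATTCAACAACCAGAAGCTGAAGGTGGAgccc
Of the 6 ADAMTS5 probes, 5 are tiled in the same way from base 1877 to base 1881, again with 56 bases in common, in capitals. Probes of a tiled set report on the same stretch of RNA and are not independent readings of the gene.
ADAMTS5, first: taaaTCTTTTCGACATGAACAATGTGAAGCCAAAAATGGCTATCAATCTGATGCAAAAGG
ADAMTS5, last: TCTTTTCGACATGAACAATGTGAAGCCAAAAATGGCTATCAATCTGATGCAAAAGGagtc

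MMP3 has 3 probes, and the values of its brightest probe carry the MMP3 result. That probe starts at base 1308 of the target, and its closest probe of another gene of the family is an MMP13 probe, with 33 identical bases over an aligned stretch of 45.
MMP3, brightest probe: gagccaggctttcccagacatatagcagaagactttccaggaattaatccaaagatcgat
MMP13, first probe: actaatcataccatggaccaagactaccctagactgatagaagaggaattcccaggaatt
The second MMP3 probe shares 50 of 60 bases with a probe of MMP10, a second stromelysin. The bases that differ are in capitals.
MMP3, second probe: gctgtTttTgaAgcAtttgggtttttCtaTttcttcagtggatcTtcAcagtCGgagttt
MMP10: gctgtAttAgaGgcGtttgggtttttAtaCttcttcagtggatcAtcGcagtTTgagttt
This MMP10 probe was well above background on 0 of the 4 arrays in each of the 5 groups. Another MMP10 probe shares 48 of 60 bases with the last MMP3 probe. It was well above background on 2 of the 1-week arrays, 0 of the 4-week arrays and 1 array of each other group. Over the 20 arrays it correlated with the last and the second MMP3 probe at r of 0.43 and 0.52. Whether MMP10 RNA had a part in those 2 MMP3 probes was not tested. The MMP12 probe is shown against the last MMP3 probe, its closest family member, with 37 of 60 bases identical and the bases that differ in capitals.
MMP12: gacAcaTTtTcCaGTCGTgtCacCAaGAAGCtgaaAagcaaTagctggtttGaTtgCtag
MMP3, last probe: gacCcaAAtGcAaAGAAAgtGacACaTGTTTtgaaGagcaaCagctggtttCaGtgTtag
The TIMP1 probe shares at most 23 of 60 bases with any other family probe on the array.
TIMP1: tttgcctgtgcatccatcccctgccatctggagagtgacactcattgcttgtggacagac

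Levels are log2 units of the deposited signal relative to the 75th percentile of the same array. Probes were tested only where 3 or more of the 4 arrays of some group read them well above background. By this rule 21 of the 23 member probes were kept, against 61.7% of all distinct probes. The 2 probes left out are the second and the last probe of MMP3. Of the 21 kept probes, 3 passed through 1 group only, an ADAMTS5 probe through the 8-week arrays and 2 MMP1 probes through the control arrays. Differences were tested with limma over all 26922 kept probes, and a probe is called where its Benjamini-Hochberg adjusted p was under 0.05. For each gene the kept probe of highest mean level is given first and is called its brightest probe. Levels of different probes are not compared with each other.

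Each group lay on its own slide, so slide and group cannot be told apart. The control and 2-week arrays were scanned on one day and the 1-, 4- and 8-week arrays on another, so that scan day and group cannot be told apart in a comparison across the days. Every call reported below, of a member or of a listed gene, lies in such a comparison. The exceptions are member calls of 8 against 4 weeks that only alternative fits made. Between 49.1% and 66.4% of spots per array were well above background, the lowest share on 1-week replicate 4. The cartilage markers COL2A1, ACAN and CNMD were well above background on 4 of 4 arrays in each of the groups, whereas SOX9 was so on 4 of the 1-week arrays and on 0 of the control arrays. The osteoclast markers ACP5, CTSK and MMP9 and the erythroid marker HBA were also so on 4 of 4 arrays in each group. A further osteoclast marker, CALCR, was so on 3 of the 1-week arrays and on 0 of the 2- and 4-week arrays. The part of cells other than chondrocytes in the member levels was not tested. The summed level of 12 skeletal muscle genes was between -0.73 and 1.29 on the deranged arrays and between 2.11 and 8.90 on the control arrays, highest on control replicates 1 and 2. In such bulk samples fewer cells of a type and less RNA per cell cannot be told apart.

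At 4 weeks MMP12, MMP3 and 1 of 4 MMP1 probes were lower than in control, and MMP12 was also lower at 8 weeks. At 4 weeks 3 of the 21 kept member probes were called, 1 each of MMP12, MMP3 and MMP1, and all 3 were lower, where 8.56% of all kept probes were called and 2.14% were called lower. At 8 weeks 1 of the 21 was called, MMP12, where 12.8% of all kept probes were called, so the members' share of 4.76% lay below that background. The arrays of the groups did not overlap on 7 of the 21 probes at 4 weeks and on 1 at 8 weeks, where 17.7% and 22.5% of all kept probes did not. Of the 7, 2 are the MMP1 probes that passed the filter through the control arrays alone. At 1 week 0 of the 21 were called by limma, against a background of 13.9%, with 4 at an unadjusted p under 0.05. At 2 weeks 0 of the 21 were called by limma, against 0.457%, with 1 at an unadjusted p under 0.05. These background shares are of probes called at an adjusted p. The share of all kept probes at an unadjusted p under 0.05 is not given, so the counts at that threshold have no background here. TIMP1, MMP13, MMP14 (named MMP1 in the files) and ADAMTS5 had no call against control at any time.

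**Figure D1:**
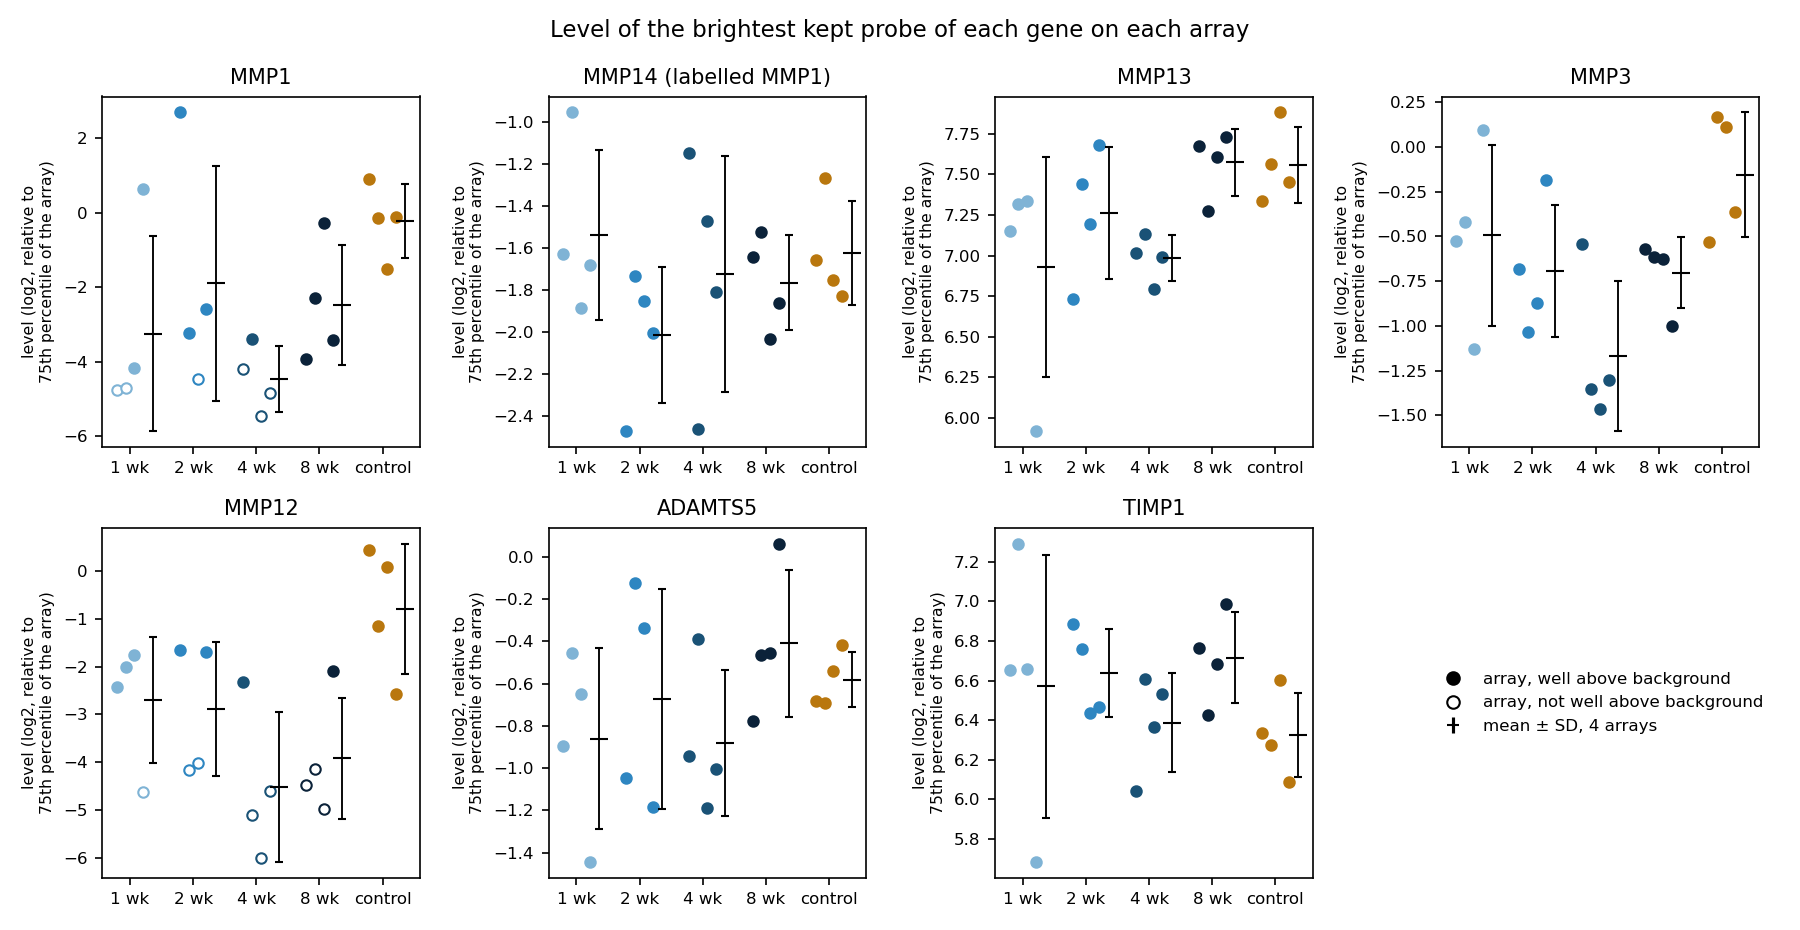
Level of the brightest kept probe of each gene on each of the 20 arrays (log2, relative to the array's 75th percentile), by weeks of derangement and in control. Filled points are arrays on which the probe was well above background and open points are those on which it was not, and bars are the mean ± SD over 4 arrays. MMP12 was above background on 1 of 4 arrays at 4 and at 8 weeks and on 4 of 4 control arrays, and MMP1 stood far above its group on 1-week replicate 4 and 2-week replicate 1.

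MMP1, the interstitial collagenase, varied widely within groups, with an SD of 3.16 at 2 weeks and 2.61 at 1 week. Its brightest probe had levels of -4.77, -4.70, -4.18 and 0.65 on the 1-week arrays. On the 2-week arrays it had 2.69, -3.23, -4.46 and -2.58. At 1 and at 2 weeks a single array thus stood several log2 units above the others, 1-week replicate 4 and 2-week replicate 1. On the 4-week arrays the levels were -4.21, -3.38, -5.47 and -4.83, on the 8-week arrays -3.92, -2.28, -0.29 and -3.42, and on the control arrays 0.91, -0.15, -1.51 and -0.11. All 4-week arrays were below all control arrays, while the 1-, 2- and 8-week arrays overlapped the control arrays. The 4 MMP1 probes followed each other closely over the 20 arrays, with Pearson r between 0.93 and 0.99, a description of 20 arrays that share groups and slides.

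At 4 weeks the brightest MMP1 probe differed from control by -4.26 ± 1.36 (log2, SE, limma adjusted p = 0.0605), and 1 of the 4 arrays read it well above background. A second probe differed by -5.15 ± 1.54 (adjusted p = 0.0456). No 4-week array read that probe well above background, and 4 of 4 control arrays did. Measured against the detection limit, its group mean was at least 13.98-fold lower at 4 weeks. This bound sets the control mean against the lowest signals well above background on each 4-week array. Like each fold given below as at least, it carries no sampling error and is not a confidence limit. The 95% interval of this second probe ran from -8.39 to -1.92. On both of these probes all 4-week arrays lay below all control arrays, as on 5.76% of all kept probes. The other 2 probes were not called (adjusted p of 0.174 and 0.107). They too were well above background on 0 of the 4-week arrays, with bounds of at least 1.781-fold and at least 4.114-fold lower, and they passed the filter through the control arrays alone, so their direction in this comparison was favoured by the filter and is not counted as support. The call of the second probe was lost when any of 14 of the 20 arrays was left out (adjusted p up to 0.121), which were the 4-week and control arrays and 1-week replicates 2 and 3, 2-week replicates 2 and 4 and 8-week replicates 2 and 4. With normexp background correction its difference was -2.87 (adjusted p = 0.269).

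At 1 week the brightest MMP1 probe differed from control by -3.03 ± 1.36 (adjusted p = 0.147), at 2 weeks by -1.68 ± 1.36 (adjusted p = 0.87) and at 8 weeks by -2.26 ± 1.36 (adjusted p = 0.304). The 95% interval at 8 weeks ran from -5.13 to 0.60. The 1-week result was not stable. Of 32 alternatives 2 called this probe at 1 week (lowest adjusted p = 0.0235), among them 1 of the 20 fits with a single array left out. Without 1-week replicate 4 the difference was -4.33 (adjusted p = 0.036), while the fit reported here did not make the call. On that array the brightest probes of MMP12, MMP13, ADAMTS5 and TIMP1 had their lowest level of the 1-week group and those of MMP1 and MMP3 their highest, and it was also the array of lowest 75th percentile of signal, 174.1 against 242.9 to 641.8 on the others. Whether its depth had a part in these levels was not tested.

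**Figure D2:**
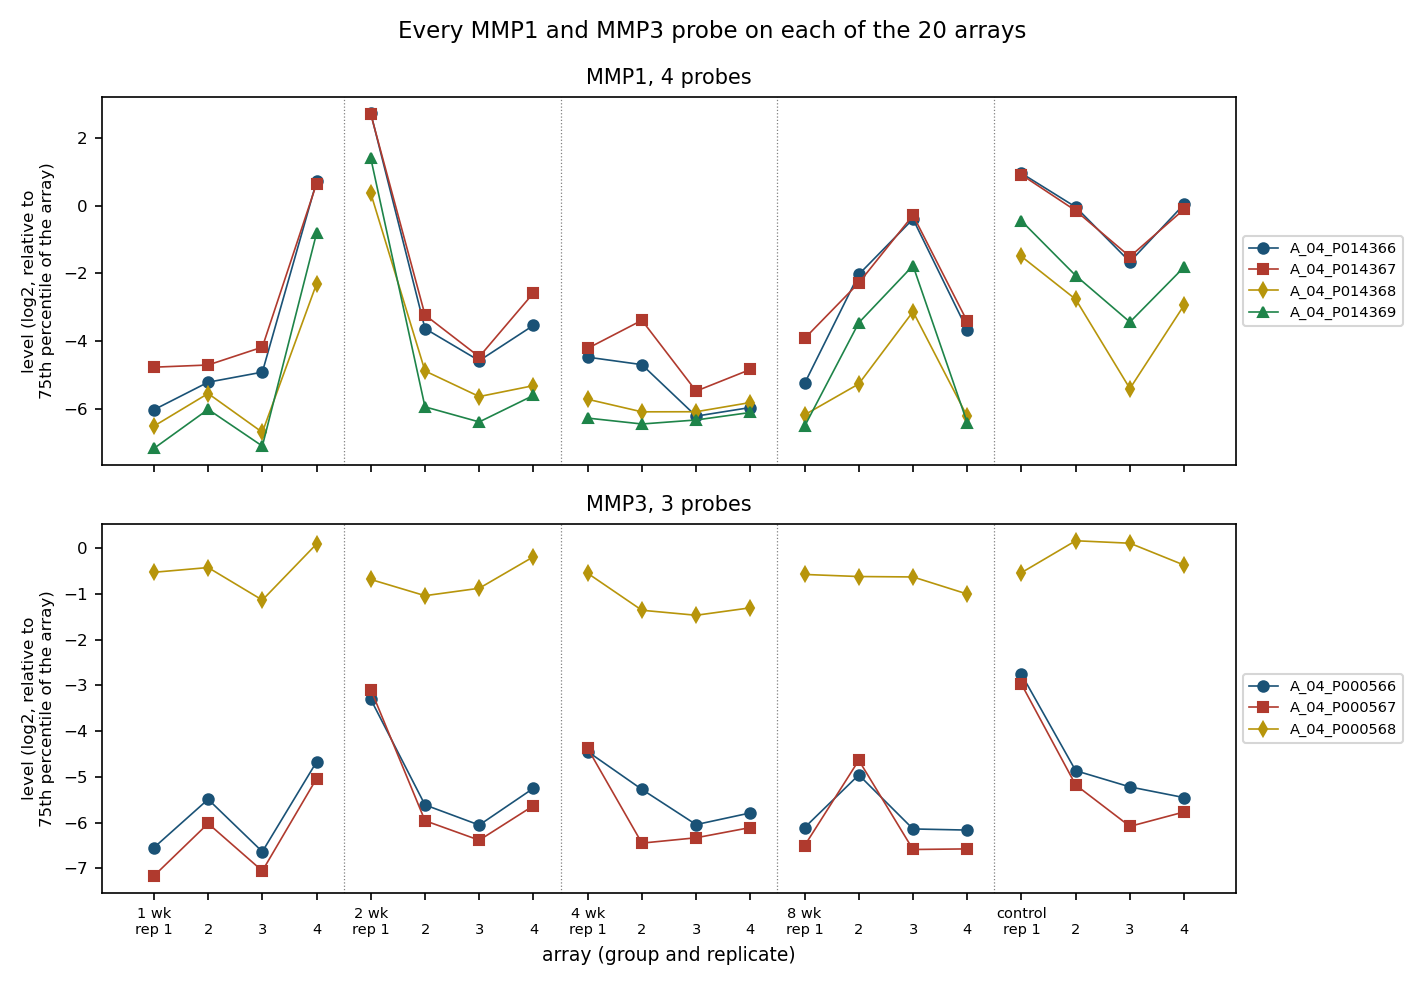
Level of each of the 4 MMP1 probes (top) and the 3 MMP3 probes (bottom) on each of the 20 arrays (log2, relative to the array's 75th percentile), with dotted lines between groups. The MMP1 probes rise and fall together, with peaks on 1-week replicate 4 and 2-week replicate 1, whereas the dim MMP3 probes A_04_P000566 and A_04_P000567 do not follow the brighter MMP3 probe A_04_P000568.

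MMP13, a collagenase like MMP1, was well above background on every array and had no call. Its brightest probe had 7.15, 7.32, 7.34 and 5.92 at 1 week, and 6.73, 7.44, 7.19 and 7.68 at 2 weeks. At 4 weeks it had 7.02, 7.14, 6.80 and 6.99, at 8 weeks 7.68, 7.28, 7.61 and 7.73, and in control 7.34, 7.57, 7.88 and 7.45. All 4-week arrays were below all control arrays and below all 8-week arrays, while the 1-week group spread most because of replicate 4. Its difference from control was -0.63 ± 0.26 at 1 week (adjusted p = 0.119), -0.30 ± 0.26 at 2 weeks (adjusted p = 0.894), -0.58 ± 0.26 at 4 weeks (adjusted p = 0.19) and 0.02 ± 0.26 at 8 weeks (adjusted p = 0.979). None of these was called, and the 8-week interval of -0.54 to 0.57 still allows a change of about that size either way.

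The 3 MMP13 probes correlated with each other at r between 0.93 and 0.95 over the 20 arrays. On each of the 3 the 8-week arrays lay above all 4-week arrays, with differences of 0.50 to 0.77 log2 units and adjusted p between 0.249 and 0.492, where 5.29% of all kept probes had every 8-week array above every 4-week array. On 2 of the 3 the 4-week arrays lay below all control arrays, as on 5.76% of all kept probes. Without 1-week replicate 4, an array of neither group, the 4-week difference of the brightest probe was called (-0.58, adjusted p = 0.0367). The difference was the same as with that array, and only the spread shared by all groups and the adjustment changed. The share of all kept probes called in that fit is not given, so the call is not taken as support.

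The 5 probes of MMP14 (named MMP1 in the files), a membrane-bound metalloproteinase that activates proMMP2, gave no call in any of the 10 comparisons between groups. The brightest of them had -1.63, -0.96, -1.89 and -1.68 at 1 week, -2.47, -1.73, -1.86 and -2.01 at 2 weeks, and -1.15, -2.47, -1.47 and -1.81 at 4 weeks. It had -1.64, -1.52, -2.03 and -1.87 at 8 weeks and -1.66, -1.27, -1.75 and -1.83 in control. On this probe every pair of groups overlapped. Over the 5 probes the differences from control ran from -0.39 to 0.46 log2 units, with adjusted p of 0.543 or more. The brightest probes of MMP14 and MMP1 correlated at r = -0.34 over the 20 arrays.

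MMP3, the stromelysin, was lower at 4 weeks. Its brightest probe was well above background on every array, with -0.54, -1.35, -1.46 and -1.30 at 4 weeks, against -0.53, 0.17, 0.11 and -0.37 in control. All 4-week arrays lay below all control arrays, the nearest pair being 4-week replicate 1 and control replicate 1. The difference was -1.01 ± 0.26 (adjusted p = 0.0217). The call was lost without 4-week replicate 2, 3 or 4 or control replicate 2 or 3 (adjusted p up to 0.073, difference -0.90 at the least). It was also lost with normexp background correction (-0.82, adjusted p = 0.215).

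At 8 weeks MMP3 had -0.57, -0.62, -0.63 and -0.999, again all below the control arrays, with a difference of -0.55 ± 0.26 that was not called (adjusted p = 0.18). Every 8-week array lay below every control array on 8.61% of all kept probes. At 1 week it had -0.52, -0.42, -1.13 and 0.10, and at 2 weeks -0.68, -1.04, -0.87 and -0.18. Both groups overlapped the control arrays, with differences of -0.34 ± 0.26 (adjusted p = 0.407) and -0.54 ± 0.26 (adjusted p = 0.656). The 2 dim MMP3 probes were well above background only on 2-week replicate 1 and control replicate 1, and correlated with each other at r = 0.97 but with the brightest MMP3 probe at 0.30 and 0.34. Their correlation with the brightest MMP1 probe was 0.67 and 0.70 over the 20 arrays, where most of their values are below background. The MMP3 call therefore rests on 1 of 3 probes.

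MMP12, the macrophage elastase, showed the lowest p of any member at 4 and at 8 weeks. Its single probe had -2.32, -5.11, -6.01 and -4.61 at 4 weeks and -4.47, -4.15, -4.97 and -2.08 at 8 weeks, against 0.45, -1.14, 0.09 and -2.57 in control. It was well above background on 1 of 4 arrays at 4 weeks, 1 of 4 at 8 weeks and 4 of 4 in control, so most of the deranged values are readings near the detection limit. At both times 1 deranged array lay above the lowest control array, control replicate 4, and the other 3 lay below all control arrays. The difference was -3.72 ± 0.92 at 4 weeks (adjusted p = 0.0173) and -3.12 ± 0.92 at 8 weeks (adjusted p = 0.0327).

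At 1 week MMP12 had -2.43, -2.005, -1.75 and -4.63 and was well above background on 3 arrays. At 2 weeks it had -1.64, -4.16, -4.02 and -1.70 and was so on 2 arrays. Both groups overlapped the control arrays, with differences from control of -1.91 ± 0.92 (adjusted p = 0.177) and -2.09 ± 0.92 (adjusted p = 0.596). The 4-week call was lost without 4-week replicate 2 or 3 or control replicate 1 or 3 (adjusted p up to 0.0656). The 8-week call was lost without 8-week replicate 1, 2 or 3 or control replicate 1, 2 or 3 (adjusted p up to 0.104). With normexp background correction the differences were -1.98 (adjusted p = 0.106) and -1.65 (adjusted p = 0.187).

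Of 10 macrophage markers, 4 had a probe (CD14, MSR1, TLR4 and CD86), and CD14 and TLR4 were well above background on every array. MSR1 was so on 2 arrays at 4 weeks, 4 at 8 weeks and 4 in control. CD86 was so on 1 array at 4 weeks, 4 at 8 weeks and 2 in control. The 4 markers were summed as linear signals, so the brightest weigh most. Their summed level was 0.99 to 2.04 at 4 weeks, 1.38 to 2.36 at 8 weeks and 2.36 to 2.90 in control, so that the 4-week arrays lay below the control arrays on both the marker sum and, with 1 exception, on MMP12. At 1 week the sum was 1.39 to 2.30, also below all control arrays, and at 2 weeks 1.39 to 2.60, while MMP12 was called at neither time. The part of macrophage RNA in the MMP12 difference was not tested. The muscle sum given above was also lower on every deranged array than on every control array, and its part was not tested. Without control replicates 1 and 2, the control arrays of highest muscle level, MMP12 differed from control by -3.28 at 4 weeks (adjusted p = 0.176) and -2.68 at 8 weeks (adjusted p = 0.261), and MMP3 by -1.04 at 4 weeks (adjusted p = 0.109), with 2 control arrays left.

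**Figure D3:**
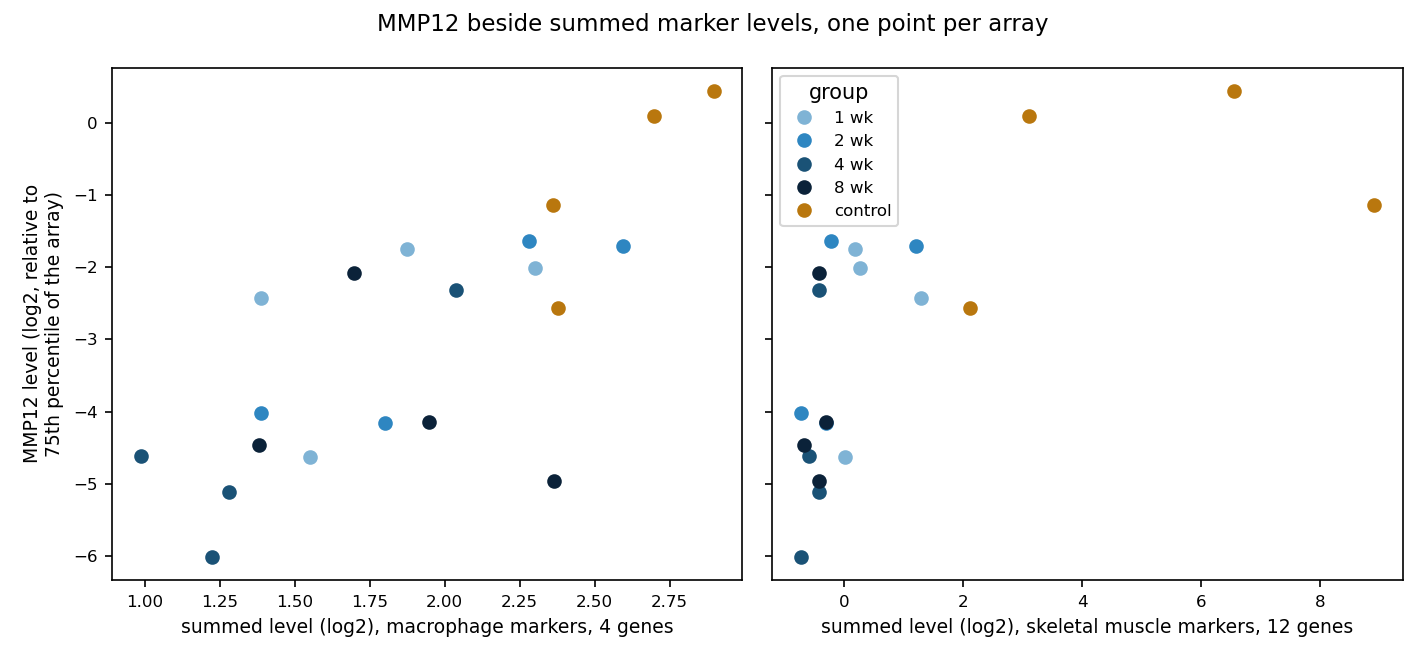
MMP12 level (log2, relative to the array's 75th percentile) against the summed level of 4 macrophage markers (left) and of 12 skeletal muscle markers (right), 1 point per array and coloured by group. Control arrays have macrophage sums of 2.36 to 2.90 and muscle sums of 2.11 to 8.90, and the 4-week arrays have macrophage sums of 0.99 to 2.04.

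ADAMTS5, the aggrecanase, gave no call against control. Its brightest probe had -0.90, -0.45, -0.65 and -1.44 at 1 week, -1.04, -0.12, -0.34 and -1.18 at 2 weeks, and -0.94, -0.39, -1.19 and -1.004 at 4 weeks. It had -0.78, -0.47, -0.46 and 0.06 at 8 weeks and -0.68, -0.69, -0.54 and -0.42 in control. The groups overlapped at all times, and the control arrays had the smallest SD, 0.13. The differences from control were between -0.30 ± 0.26 at 4 weeks (adjusted p = 0.519) and 0.17 ± 0.26 at 8 weeks (adjusted p = 0.718), and the 8-week interval ran from -0.37 to 0.71.

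The 6 ADAMTS5 probes correlated with each other at r between 0.08 and 0.95. One of them, the first of the tiled set, was called between 8 and 2 weeks, with -2.61, -3.17, -2.53 and -2.40 at 8 weeks, against -4.30, -3.83, -4.05 and -3.76 at 2 weeks. All 8-week arrays were above all 2-week arrays, and the probe was well above background on 4 of the 8-week arrays and on 0 of the 2-week arrays. The difference was 1.31 ± 0.39 (adjusted p = 0.0465), with a 95% interval of 0.48 to 2.13. By the detection limit the group mean was at least 2.142-fold higher at 8 weeks, again without sampling error. On 3 of the 6 ADAMTS5 probes all 8-week arrays lay above all 2-week arrays, as on 10% of all kept probes. All 3 belong to the tiled set and are not independent readings. Over all members the groups did not overlap on 5 of the 21, against 19.7%, and these 3 tiles are among the 5. The first tile was favoured by the filter in this comparison, so neither count is taken as support. The first tile gave the 1 call among the 21 kept member probes between these times, where 8.56% of all kept probes were called. The probe passed the filter only through the 8-week arrays, the brightest ADAMTS5 probe differed by 0.26 (adjusted p = 0.61), the call was lost when any of 13 arrays was left out, and with normexp background correction the sign turned (-0.27, adjusted p = 0.798). Those 13 were the 2-week arrays, 8-week replicates 1, 3 and 4, 1-week replicates 1, 2 and 3, 4-week replicates 2 and 4 and control replicate 2. The tiles did not all follow the first tile, although they share most of their bases. Another tile had -0.83 on 2-week replicate 3, against -4.44, -3.94 and -2.75 on the other 2-week arrays. It differed by 0.31 between 8 and 2 weeks (adjusted p = 0.853).

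TIMP1, the inhibitor, was well above background on every array and gave no call in any of the 10 comparisons. It had 6.65, 7.29, 6.66 and 5.68 at 1 week and 6.89, 6.76, 6.44 and 6.47 at 2 weeks. At 4 weeks it had 6.04, 6.61, 6.37 and 6.53, at 8 weeks 6.77, 6.43, 6.68 and 6.98, and in control 6.33, 6.27, 6.605 and 6.09. The groups overlapped at all times, and the highest and the lowest of the 20 values both fell in the 1-week group. The difference from control was 0.25 ± 0.25 at 1 week (adjusted p = 0.539), 0.31 ± 0.25 at 2 weeks (adjusted p = 0.866), 0.06 ± 0.25 at 4 weeks (adjusted p = 0.911) and 0.39 ± 0.25 at 8 weeks (adjusted p = 0.329). The 95% intervals reached from -0.46 to 0.58 at 4 weeks and from -0.13 to 0.91 at 8 weeks, so changes within them are not excluded with 4 arrays per group.

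**Figure D4:**
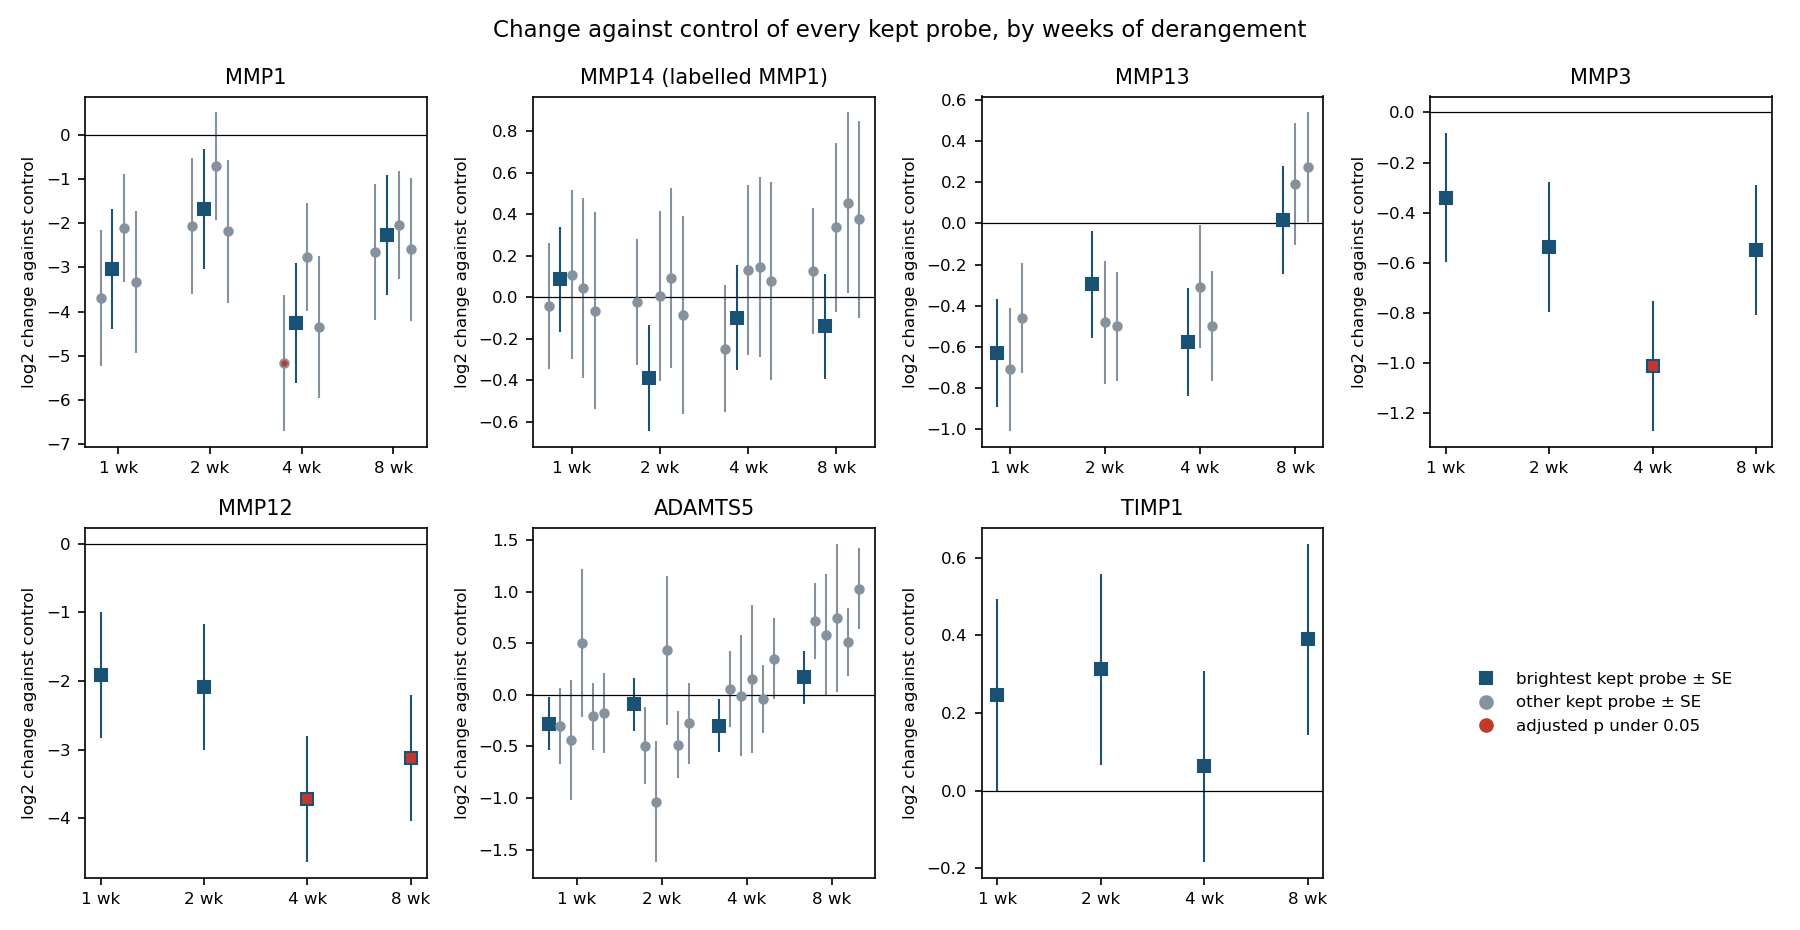
Log2 change against control of every kept probe of each gene, by weeks of derangement, with bars of ± SE. Squares are the brightest kept probe of a gene, circles its other probes, and red marks an adjusted p under 0.05, which MMP1 (1 probe), MMP3 and MMP12 have at 4 weeks and MMP12 has at 8 weeks.

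Among the deranged times, no kept member probe was called by limma in the other 5 comparisons. Between 2 weeks and 1 week, where 11.4% of all kept probes were called, 0 of the 21 had an unadjusted p under 0.05. Between 4 weeks and 1 week (background 1.08%) 1 had, between 8 weeks and 1 week (0.0149%) 6 had, with 2 probes whose groups did not overlap against 8.07% of all kept probes, between 4 weeks and 2 weeks (4.29%) 0 had, and between 8 weeks and 4 weeks (0.565%) 2 had. Of the 2 probes without overlap, 1 is the first ADAMTS5 tile, which passed the filter through the 8-week arrays alone. The F test for any difference among the 5 groups called 0 of the 21, where it called 15.8% of all kept probes, with 6 at an unadjusted p under 0.05. MMP12 came nearest (adjusted p = 0.0531), followed by MMP3 (adjusted p = 0.0812). The shares of called probes in this paragraph are at an adjusted p and are no background for its counts at an unadjusted p.

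MMP12 averaged -2.70 ± 1.31 at 1 week, -2.88 ± 1.40 at 2 weeks, -4.51 ± 1.57 at 4 weeks, -3.92 ± 1.27 at 8 weeks and -0.79 ± 1.37 in control (SD, n = 4 each). MMP3 averaged -0.49 ± 0.50, -0.69 ± 0.37, -1.17 ± 0.42 and -0.70 ± 0.20 at 1, 2, 4 and 8 weeks and -0.15 ± 0.35 in control. For both genes control had the highest mean and 4 weeks the lowest, and no pair of neighbours in that order was called. TIMP1 had its lowest mean in control, 6.32 ± 0.21, and its highest at 8 weeks, 6.72 ± 0.23, a difference that was not called.

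Over the 20 arrays the brightest probes of MMP1 and MMP3 correlated at r = 0.53, MMP3 and MMP12 at 0.53, MMP13 and ADAMTS5 at 0.63, and MMP1 and MMP13 at -0.13. These are descriptions over 20 arrays that share groups, slides and scan days. By the same measure, over the named genes with a kept probe, the genes most like MMP12 included FAS (0.76), CD14 (0.76), HPRT1 (0.74) and LUM (0.74). MMP1 was most like RLN1 (0.83), DBI (0.70), CCL2 (0.67), PPP3CB (0.65) and CD14 (0.64). MMP3 was most like CUL5 (0.74), DBI (0.73), LOC100008854 (0.71), VCAN (0.69) and RPL23 (0.68). MMP13 was most like PTPRO (0.84), CKB (0.84), PODXL (0.84), MT3 (0.83) and ITGB3 (0.83), and ADAMTS5 was most like CSTB (0.72), CTSD (0.69), CST3 (0.64), CKB (0.64) and MMP13 (0.63). TIMP1 was most like HYAL2 (0.86), TGFB1 (0.77), EIF2B2 (0.71), EIF4G2 (0.68) and MMP9 (0.68), and MMP14 (named MMP1 in the files) was most like CACNB2 (0.56), POSTN (0.55), PRKAR2A (0.54), PPP1CB (0.51) and AQP1 (0.49).

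Of 49 other matrix proteases and inhibitors, 20 had a kept probe, among them MMP14, which is also counted with the members above. At 4 weeks 1 was higher (SERPINB2) and 1 lower (PLAU), at 1 week the same 2 genes were called in the same directions, at 8 weeks SERPINB2 alone was called and at 2 weeks 0 were called, and the median change of the list was -0.03 at 4 weeks, against 0.03 over all kept probes. Of 653 named genes with a kept probe, 71 were higher and 51 lower at 1 week, 3 and 7 at 2 weeks, 57 and 40 at 4 weeks, and 54 and 43 at 8 weeks, the background for the counts of each list. PLAU, the urokinase that starts the plasmin cascade, differed from control by -1.06 ± 0.23 at 1 week (adjusted p = 0.00572) and -1.01 ± 0.23 at 4 weeks (adjusted p = 0.0117), and 2 of its 3 probes were called at both times. At 8 weeks its brightest probe differed by -0.66 (adjusted p = 0.0756) and another of its probes was called (-0.998, adjusted p = 0.00659). SERPINB2, an inhibitor of urokinase, was well above background on no control array. It exceeded control by at least 2.558-fold at 1 week (adjusted p = 0.00022), at least 1.798-fold at 4 weeks (adjusted p = 0.00297) and at least 2.084-fold at 8 weeks (adjusted p = 0.00103). The gelatinase MMP2 differed from control by 0.64 ± 0.25 at 4 weeks (adjusted p = 0.133) and 0.71 ± 0.25 at 8 weeks (adjusted p = 0.0724), and the gelatinase MMP9 by 0.20 ± 0.21 at 8 weeks (adjusted p = 0.592). TIMP2 differed by 0.21 ± 0.14 at 4 weeks (adjusted p = 0.374) and TIMP3 by 0.20 ± 0.33 (adjusted p = 0.764).

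Of 25 genes for matrix substrates of these enzymes, 12 had a kept probe, with 1 lower at 1 week, 0 called at 2 weeks, 2 lower at 4 weeks and 1 lower at 8 weeks, and 0 higher at any of these times. Over the 653 named genes 51, 7, 40 and 43 were lower at 1, 2, 4 and 8 weeks, and 71, 3, 57 and 54 higher. The median change of the list was 0.18 at 1 week and -0.24 at 8 weeks, against 0.03 and 0.04 over all kept probes. LUM, the small leucine-rich proteoglycan lumican, differed from control by -1.33 ± 0.32 at 1 week (adjusted p = 0.0106), -1.14 ± 0.32 at 4 weeks (adjusted p = 0.0357) and -1.19 ± 0.32 at 8 weeks (adjusted p = 0.0222). VCAN, the large proteoglycan versican, differed by -1.49 ± 0.38 at 4 weeks (adjusted p = 0.0213). ACAN, the aggrecan that ADAMTS5 cleaves, differed by 1.03 ± 0.39 at 1 week (adjusted p = 0.0859) and 0.58 ± 0.39 at 4 weeks (adjusted p = 0.383), and COL2A1, the collagen II that MMP13 cleaves, by 0.68 ± 0.51 at 4 weeks (adjusted p = 0.447).

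A list of 26 known inducers of these genes and factors that modulate them, among them the antagonist IL1RN, had 12 genes with a kept probe. At 1 week 3 were higher and 1 lower, at 2 weeks 0 were called, at 4 weeks 2 were higher and 1 lower, and at 8 weeks 1 was higher and 1 lower, and the 1 lower at 4 and at 8 weeks was IL1RN, which blocks an inducer. The shares over the 653 named genes are those given for the substrates. The median change of the list at 4 weeks was 0.08, against 0.03 over all kept probes. The brightest probe of CXCL8, the neutrophil chemokine, was higher by 1.33 ± 0.28 at 1 week (adjusted p = 0.00382), 1.18 ± 0.28 at 4 weeks (adjusted p = 0.0133) and 1.17 ± 0.28 at 8 weeks (adjusted p = 0.0107), but another CXCL8 probe was lower at each of these times (-2.03, -2.02 and -2.10, adjusted p of 0.0144, 0.0218 and 0.0131). The brightest probe of TNF, an inflammatory cytokine, was higher by 0.97 ± 0.28 at 1 week (adjusted p = 0.0269) and 1.31 ± 0.28 at 4 weeks (adjusted p = 0.00623), while 2 of its 5 probes had negative differences at both times. EGR1, an immediate early factor, was well above background on no control array and exceeded control at 1 week by at least 2.174-fold (adjusted p = 0.0147). IL18, a cytokine of the interleukin 1 family, was lower at 1 week by -1.07 ± 0.24 (adjusted p = 0.00591). IL1RN, the antagonist of the interleukin 1 receptor, was lower at 4 weeks by -1.14 ± 0.31 (adjusted p = 0.029) and at 8 weeks by -1.07 ± 0.31 (adjusted p = 0.0294).

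**Figure D5:**
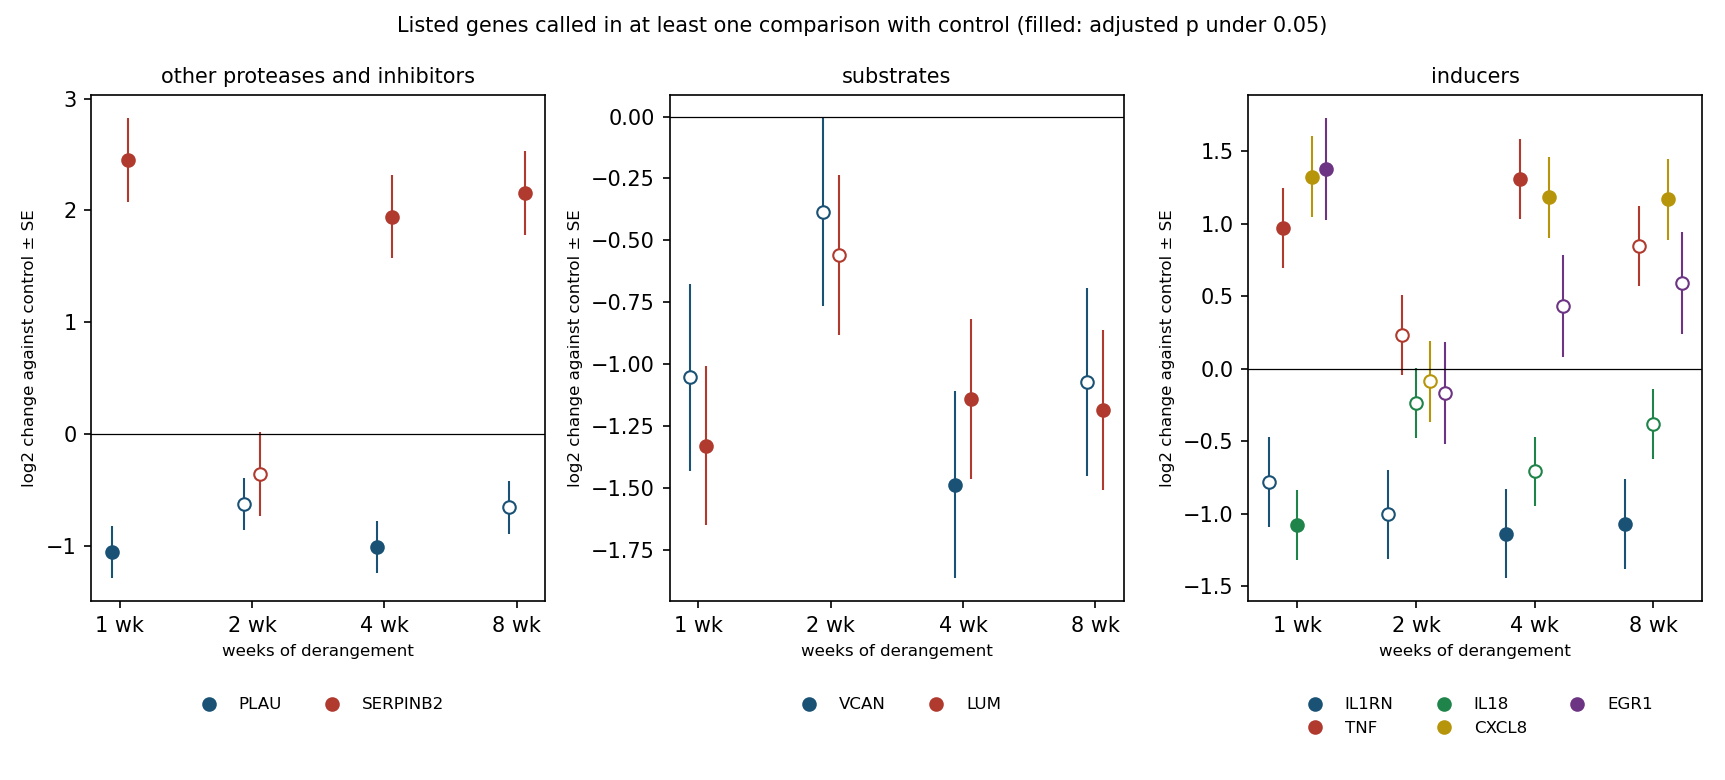
Log2 change against control, with bars of ± SE, of the listed genes called in at least 1 comparison with control, by weeks of derangement. Filled points have an adjusted p under 0.05. PLAU, LUM, VCAN, IL18 and IL1RN are below 0, SERPINB2 is above 0 at 1, 4 and 8 weeks, and no gene has a filled point at 2 weeks.

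Genes of the 3 lists were also called between the deranged times. Of the 653 named genes with a kept probe, 33 were higher and 66 lower at 2 weeks against 1 week. The counts were 32 and 8 at 4 weeks against 2 weeks, and 39 and 20 at 8 weeks against 2 weeks. At 2 weeks against 1 week IL18 was higher by 0.84 ± 0.24 (adjusted p = 0.0315). In the same comparison ACAN was lower by -1.41 ± 0.39 (adjusted p = 0.0252) and CNMD, the cartilage glycoprotein chondromodulin, by -2.66 ± 0.83 (adjusted p = 0.0482). RUNX2, a factor of chondrocyte hypertrophy, was lower by -0.65 ± 0.18 (adjusted p = 0.0244), CXCL8 by -1.41 ± 0.28 (adjusted p = 0.00279) and EGR1 by -1.54 ± 0.35 (adjusted p = 0.00815), and SERPINB2 was at least 2.5-fold lower (adjusted p = 7.11e-05). Against 2 weeks, SERPINB2 and CXCL8 were higher at 4 and at 8 weeks and TNF was higher at 4 weeks (1.07 ± 0.28, adjusted p = 0.0349). The CXCL8 values are those of its brightest probe. The CXCL8 probe that was lower against control had the opposite sign in each of these comparisons (0.58, -0.57 and -0.65), without a call.

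Leaving out single arrays ended several of these list calls. PLAU, SERPINB2, IL18 at 1 week, LUM at 1 week, TNF at 4 weeks and CXCL8 at 1 and 8 weeks remained called against control without any single array. Without both control replicates 1 and 2, the control arrays of highest muscle level, the calls that remained were those of SERPINB2 at 1 and 8 weeks and TNF at 4 weeks, and the other list calls against control were lost, with 2 control arrays left. LUM was lost at 4 weeks without 4-week replicate 2, 3 or 4 or control replicate 1, 2 or 3 (adjusted p up to 0.126) and at 8 weeks when 8-week replicate 1 or control replicate 1 or 2 was left out (up to 0.0851). VCAN was lost without 4-week replicate 2 or 4 or control replicate 2 or 3 (up to 0.0794), and TNF at 1 week without 1-week replicate 2 or 4 or control replicate 1 or 4 (up to 0.096). IL1RN was lost at 4 weeks without 4-week replicate 1, 2 or 4 or control replicate 2 or 3 (up to 0.0918) and at 8 weeks without 8-week replicate 1, 3 or 4 or control replicate 2 or 3 (up to 0.0883). EGR1 was lost without 1-week replicate 4 (0.0513) and CXCL8 at 4 weeks when 4-week replicate 4 or control replicate 1 was left out (up to 0.051). Of the calls of 2 weeks against 1 week, RUNX2 was lost without 1-week replicate 4 or 2-week replicate 1 or 4, and ACAN without 1-week replicate 2 or 4 or 2-week replicate 1 or 4. IL18 was lost without 1-week replicate 1 or 4 or 2-week replicate 3 or 4, and CNMD when any of 14 arrays was left out (adjusted p up to 0.158). Of the calls of 4 weeks against 2 weeks, TNF was lost without 2-week or 4-week replicate 1, 2 or 3, and CXCL8 without 4-week replicate 4. With normexp background correction none of these list calls was made.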

How the data were processed

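Cy3-labelled RNA of 20 samples was read on one-colour arrays, 1 sample per array, in 5 groups of 4. The deposited scanner files and the authors' value table both hold linear intensity. Per the file headers and the submitters' processing notes, Agilent Feature Extraction 10.7.1.1 made the processed signal, which subtracts background. The value table equalled the scanner intensity for 16 arrays, and its 8-week columns each matched another 8-week array, which leaves the numbering of the 8-week arrays open to doubt.

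Signals were put on the log2 scale minus each array's 75th percentile, with outlier spots left out. Group means over all 20 arrays were fitted with limma 3.58.1 (R 4.3.3, lmFit and eBayes), with Benjamini-Hochberg adjustment over the kept probes for each comparison. On data simulated for 4 weeks against control over 26922 probes, the fit recovered 61 of 100 probes changed by 1 log2 unit and 91 of 100 changed by 2.

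Each array was taken as 1 rabbit, per the series' design text. The members and gene lists were chosen with earlier results of these data known. The rule for named genes took all members, every called list gene (at most 6 per list and comparison, by lowest p) and the 5 genes most like each member. Some results that the rule takes are not reported here. MMP2, MMP9, MMP10, TIMP2, TIMP3, ACAN and COL2A1 are given beside them without a call and were chosen after their values were seen. Alternatives covered background correction, scaling, the filter, the samples fitted, array weights, the prior, a replicate block and each array left out.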

Additional observations from a re-analysis of the deposited data

Results flagged for a closer look

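In 5 of 45 combinations of a probe and a group of 4, taken over the brightest probe of each gene and the other called probes, the highest or lowest array stood apart from the other 3 by Dixon's test of the gap to the nearest array. Chance alone marks about 1 in 20 groups. MMP1 stood apart on 1-week replicate 4, where its brightest probe was at 0.65, against -4.77 to -4.18 on the other arrays, and its called probe at 0.71, against -6.02 to -4.91. The called MMP1 probe also stood apart on 2-week replicate 1, at 2.72, against -4.58 to -3.53. The brightest MMP13 probe was lowest on 1-week replicate 4, at 5.92, against 7.15 to 7.34, and the brightest MMP3 probe on 8-week replicate 4, at -0.999, against -0.63 to -0.57.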

How the results depend on the processing

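The count of member probes called at 4 weeks against control, 3, was 0 with normexp background correction and 0 without control replicates 1 and 2, 6 with the arrays of the 2 groups only and 7 with array quality weights, and between 0 and 6 with single arrays left out. At 8 weeks the count of 1 became 0 with normexp, 0 without a filter on dim probes, 0 without both those control arrays, and 0 or 1 with single arrays left out. For 8 against 2 weeks the count of 1 became 0 with normexp, 0 with median scaling, 0 without the filter, 0 with the replicate block, 3 with the arrays of the 2 groups only, 3 without both those control arrays, 4 with array weights, and between 0 and 5 with single arrays left out. At 1 week against control the count of 0 became 3 with array weights and 0 to 2 with single arrays left out. For 8 against 4 weeks the count of 0 became 1 with the arrays of the 2 groups only, 2 with array weights and 0 to 1 with single arrays left out. With the replicate block the second MMP1 probe was not called at 4 weeks (adjusted p = 0.0694). The median correlation of deviations was 0.0074 over 40 same-numbered pairs of arrays and -0.012 over 120 pairs of different number. Of these, 9 and 26 were over 0.1. No pairing by replicate number was seen, but the numbering of the 8-week arrays is in doubt, so the check cannot exclude one.

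The MMP12 and MMP3 differences kept their sign under every alternative run, between -4.45 and -1.98 for MMP12 at 4 weeks, -3.74 and -1.65 at 8 weeks, and -1.22 and -0.82 for MMP3 at 4 weeks. Scaling on the median moved all differences at 4 weeks alike, which made that of MMP3 -1.14. Averaging the probes of a gene turned the sign of the uncalled 4-week difference of ADAMTS5 (0.04, adjusted p = 0.965). Over all kept probes the calls at 4 weeks were 28 with normexp, 777 without both those control arrays, 5091 with array weights and as few as 1314 or as many as 3701 with single arrays left out, against 2305. At 8 weeks they were 34, 965, 5774 and as few as 2009, against 3440, and at 1 week 44 with normexp, 1481 without both control arrays and 1415 with the arrays of the 2 groups only, against 3733. For 8 against 2 weeks they were 32 with normexp, 3478 with median and 1181 with quantile scaling, 3922 with weights and as few as 1369 with single arrays left out, against 2305. The cause was not tested. Signals of MMP12 and MMP1 near background limit how well a fold can be given at 4 and 8 weeks.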
